A study of Homo sapiens with 4 samples.

Results

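MiaPaca-2 is an established human pancreatic cancer cell line, and its total RNA was sequenced in 4 samples. In 2 samples the cells carried shPRMT1, a short hairpin RNA against the arginine methyltransferase PRMT1, and in 2 they carried shNTC, a non-targeting hairpin. The labels name a single PRMT1 hairpin and no rescue, and they do not say whether the replicates were grown separately. The p-values thus reflect the spread of these 4 libraries alone, which may be technical. The authors' deposited table, which holds their comparison of both groups and no values of single samples, lists 858 genes. From it, 7 genes of protein degradation and protein folding were chosen by name: PSMD10, PSMC4, PSMG2, PSMB6, PSMD9, KLHL22 and HSPH1.

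The proteasome destroys proteins that carry ubiquitin chains. Its barrel-shaped 20S core holds the proteolytic sites inside rings of alpha and beta subunits, and the 19S regulatory particle caps the barrel, binds the ubiquitin chain and unfolds the substrate with a ring of ATPases. Dedicated chaperones put these rings together and are not part of the finished particle. Upstream, cullin-RING ligases attach ubiquitin with the help of exchangeable substrate adaptors. Heat shock proteins of the HSP70 system act on the same misfolded proteins by refolding them or passing them on for degradation.

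Each entry of the authors' deposited table has a ratio between both groups, its log2 value, an unadjusted p and an adjusted p, and every entry has an unadjusted p under 0.05. Membership in the table therefore already required such a p, and the values of the 7 genes are given as a description, with no test. The ratio was read as shPRMT1 over shNTC because the authors' deposited table gives PRMT1 the value 0.356 (−1.49 in log2, p = 0.0156, adjusted p = 0.411). This reading was taken from the data, so PRMT1 is no separate check of the labels. Under the opposite reading every direction below would reverse. The depth per sample is unknown, and no error stands beside a fold change because no replicate values were used.

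Of the 7 genes, 5 were listed lower in shPRMT1 and 2 higher. From the adjusted p-values in the authors' deposited table, 7640 genes were tested. Of these, 11.2% had an unadjusted p under 0.05, 6.56% on the lower side and 4.67% on the higher side. All members are listed genes, and of the 858 listed genes 501 were lower in shPRMT1 and 357 higher. By the authors' deposited table no member passed an adjusted p of 0.05, which 1 gene of all those tested (0.0131%) did. In the authors' deposited table the adjusted p was 0.408 for 2 members and 0.432 for 5, values held by 43 and 400 of the listed genes respectively. No member had an unadjusted p under 0.01 either, which 191 of the 858 listed genes had (2.5% of all tested genes). The member nearest to the limit of 0.05 was PSMC4, at p = 0.0406 in the authors' deposited table. Genes on the other side of that limit were not analysed here.

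Short stretches of DNA before 3 member genes are shown first, because they hold the same letters. The 250 bases before each annotated start were searched on both strands, in RefSeq sequences of build GRCh38.p14. The table of starts had an entry for 6 of the 7 members, and PSMB6 was the one without. The letters TACANNTCC form the core of the longer element that the zinc finger activator ZNF143 is known to bind. They were found before PSMD10, PSMC4 and HSPH1. Each line gives 30 bases, 5′ to 3′ on the gene's own strand, with the match in capitals.
PSMD10: aggatccctgGGACTTGTAgttctgcactg
PSMC4: taacttaaacTACACTTCCcagaagcctcc
HSPH1: cggccaggacTACACATCCcagcatgcaag

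The PSMD10 stretch lies at chrX:108091737-108091766 on the minus strand, and its match reads on the opposite strand, 214 to 206 bases before the start. In GENCODE 29 the same bases are in an untranslated exon stretch of ATG4A, an autophagy protease gene that runs the other way from a start 50 bases from that of PSMD10. The PSMC4 stretch lies at chr19:39971095-39971124 on the plus strand, 60 to 52 bases before the RefSeq start, where GENCODE 29 annotates untranslated exon sequence of a PSMC4 transcript that starts further upstream. The HSPH1 stretch lies at chr13:31162393-31162422 on the minus strand, 24 to 16 bases before the start and outside any annotated gene. In PSMC4 and HSPH1 the match reads along the gene.

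The letters were not found before PSMG2, PSMD9 or KLHL22. The 3 genes with them were listed lower, as were PSMG2 and KLHL22 without them. Of 15843 protein-coding genes with a start in the RefSeq table, 5.02% hold the same letters before at least 1 of their starts. The share among all genes of the authors' deposited table is not given, because only 627 of the 858 had an entry. The motif was chosen after the sequences had been read, from several motifs and motif lengths tried, so the count of 3 is a description of these windows and not a site of binding.

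A further 7 motifs of factors linked to these gene groups were searched. The core of the antioxidant response element, TGACNNNGC, which NRF2 and its relative NFE2L1 are known to use at proteasome genes, was found before PSMD9 and PSMG2. It occurs before 14.7% of protein-coding genes. PSMD9, which was listed higher, holds it at 2 places and PSMG2, which was listed lower, at 1. In PSMG2 the letters stand only before the upstream one of its RefSeq starts and not before the other.
PSMD9, 102 to 94 bases before the start: cggcttccggTGACCCAGCtccgccctaag
PSMD9, 149 to 141 bases before the start: cgctactcctGCCGGGTCAccacaggcgca
PSMG2, 39 to 31 bases before the upstream one of its RefSeq starts: cagtttcccgTGACCCCGCggccgctctgc

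The PSMD9 stretches lie at chr12:121888678-121888707 and chr12:121888631-121888660, outside any annotated gene, and the second match reads on the opposite strand. The PSMG2 stretch lies at chr18:12658689-12658718, in an exon of another annotated PSMG2 transcript. The heat shock element cores GAANNTTC and TTCNNGAA, the YY1 core GCCATNTT and the ETS-like TTTCCGG were found before none of the 6 genes. They occur before 6.46%, 7.64%, 4.82% and 6.03% of protein-coding genes. Of 2 shorter ETS cores, added after the sequences had been read, CTTCCG was found before PSMC4 and PSMD9 (25.7% of protein-coding genes) and ACTTCC before PSMC4 (25.9%). Of 4 others added in the same way, the E-box CACGTG was found before PSMD9 and KLHL22 (9.73%) and TGACGT, part of the cyclic AMP response element, before PSMG2 (10.5%). TATAAA (11.9%) and CGCATGCG (2.91%) were found before none. CCAAT, which NF-Y binds, was found before PSMD10 alone (40.2% of protein-coding genes). The SP1 box GGGCGG was found before PSMC4, PSMG2, PSMD9 and KLHL22 (62.1% of protein-coding genes), at 5 places before KLHL22. The box is made of G and C alone, and G and C form 80.4% of the KLHL22 window. The median over windows of protein-coding genes was 62.0%. The part of base content in the number of boxes was not tested. A motif not found says only that its letters are not in that window.

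The assembly chaperones of the proteasome were the group with most members. PSMD10, also called gankyrin, is an ankyrin-repeat protein that holds one ATPase of the 19S ring during assembly and is also known to bind RB1 and MDM2. The authors' deposited table gave it a ratio of 0.831, or 16.9% below shNTC (−0.27 in log2, p = 0.0143, adjusted p = 0.408). PSMD9, a chaperone that binds other ATPases of the same ring, was given a ratio of 1.32 by the authors' deposited table, or 32.2% above shNTC (0.40 in log2, p = 0.0217, adjusted p = 0.432). PSMG2, which pairs with PSMG1 to assemble the alpha ring of the core, was at a ratio of 0.915 by the authors' deposited table, or 8.49% below shNTC (−0.13 in log2, p = 0.0364, adjusted p = 0.432). The chaperones of the base thus stood on both sides: PSMD10 lower and PSMD9 higher. The other chaperones of the base (PSMD5 and PAAF1) and of the core (PSMG1, PSMG3, PSMG4 and POMP) were not in the table.

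Among the subunits of the finished particle, PSMC4 and PSMB6 were listed. PSMC4 is the 19S ATPase that gankyrin binds. By the authors' deposited table its ratio was 0.834, or 16.6% below shNTC (−0.26 in log2, p = 0.0406, adjusted p = 0.432). PSMC4 and PSMD10, which bind each other, differed by 0.0049 in log2 fold change. Other listed genes lie between them, since they rank 274 and 268 of 858 from lowest to highest. Whether the 2 change together was not tested. Their p-values were the lowest (PSMD10) and the highest (PSMC4) of the members. PSMB6 carries the caspase-like proteolytic site of the core, and in the immunoproteasome PSMB9 takes its place. The authors' deposited table listed it 7.25% higher, at a ratio of 1.07 (0.10 in log2, p = 0.0292, adjusted p = 0.432). This was the smallest difference of the 7 genes, and 786 of the 858 listed genes had a larger absolute log2 fold change.

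**Figure D1:**
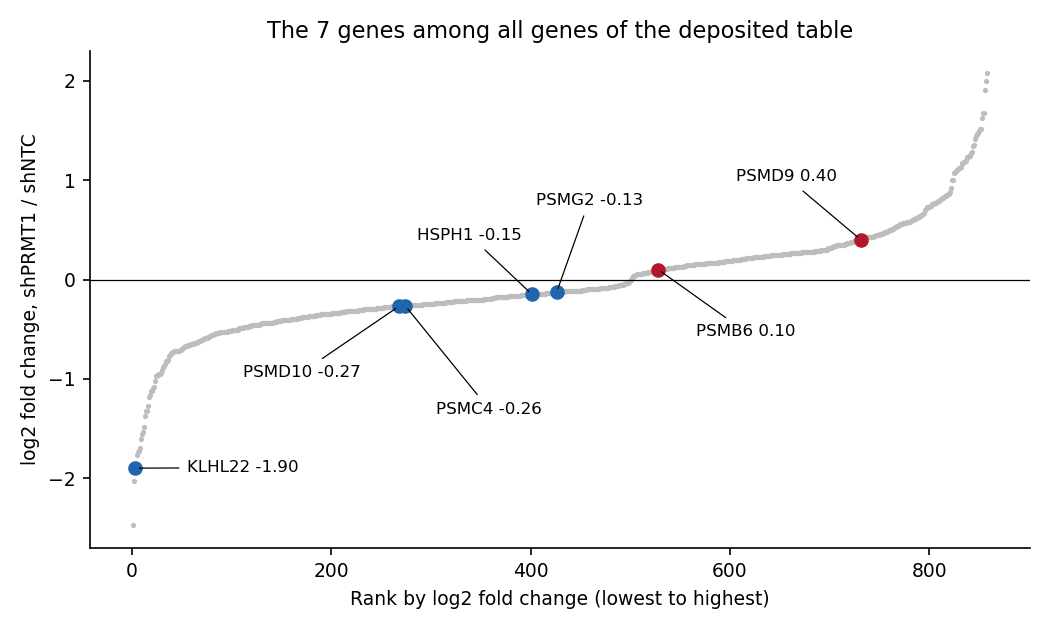
Log2 fold change of each gene in the authors' deposited table (vertical axis) by its rank from lowest to highest (horizontal axis); each grey point is 1 of the 858 genes, blue points are members listed lower and red points members listed higher. KLHL22 at −1.90 holds rank 3 from the lowest. The other 6 members lie between −0.27 and 0.40, at ranks from 268 (PSMD10) to 731 (PSMD9).

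KLHL22 stood apart from the other members in size. It is a BTB-Kelch adaptor of the cullin-3 ubiquitin ligase, known to mark DEPDC5, a brake on the growth kinase mTORC1, for degradation, and to act on PLK1 in mitosis. By the authors' deposited table its ratio was 0.268, or 73.2% below shNTC (−1.90 in log2, p = 0.0145, adjusted p = 0.408). Only 5 of the 858 listed genes had a larger absolute log2 fold change. KLHL22 was the 1 member whose log2 ratio was 1 or more in size, which 58 of the 858 listed genes reached (0.759% of all tested genes).

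HSPH1, also called HSP105, belongs to the HSP110 family. It exchanges the nucleotide on HSP70 and takes part in pulling apart protein aggregates. The authors' deposited table listed it 9.61% lower, at a ratio of 0.904 (−0.15 in log2, p = 0.0262, adjusted p = 0.432).

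The 3 members with the largest absolute log2 ratios (KLHL22, PSMD9 and PSMD10) were also the 3 with the lowest p-values, though not in the same order. PSMD10 and KLHL22 had nearly the same p (0.0143 and 0.0145) in the authors' deposited table, at log2 ratios of −0.27 and −1.90. PSMB6, with the smallest difference, had a lower p than PSMC4 in the authors' deposited table, at 0.0292 against 0.0406. The median absolute log2 fold change was 0.26 for the members and 0.28 for all listed genes, and the median signed values were −0.15 and −0.12.

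**Figure D2:**
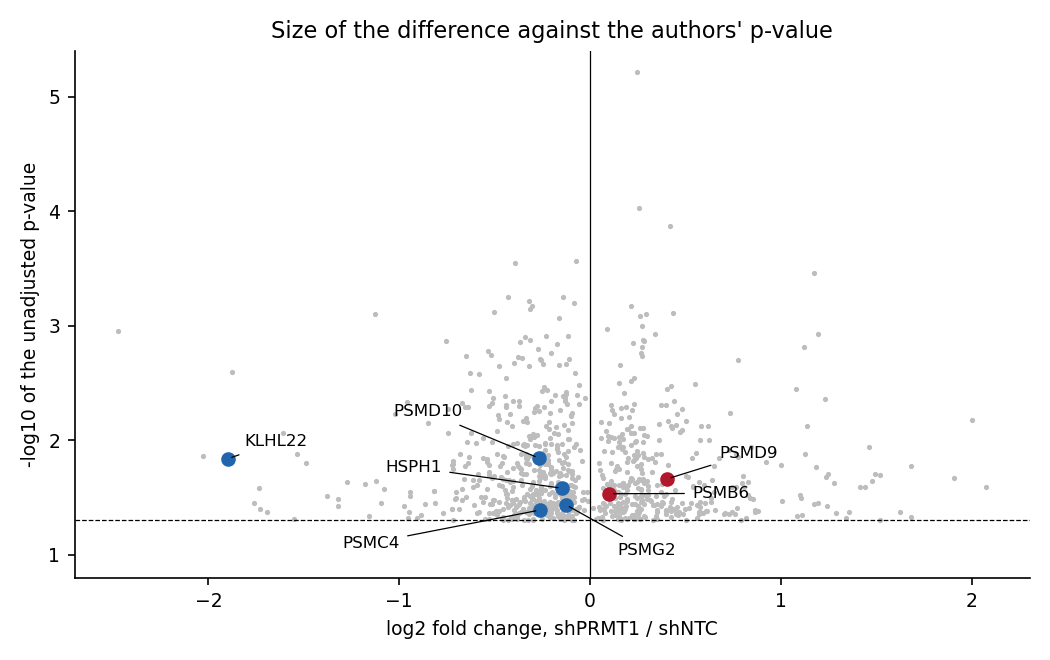
Log2 fold change (horizontal axis) against −log10 of the unadjusted p (vertical axis) for each of the 858 listed genes, from the authors' deposited table, with members in blue (lower) and red (higher) and a dashed line at the limit of the table. Members lie on both sides of the median p of all listed genes (0.025), from PSMC4 nearest the dashed line up to PSMD10. KLHL22 lies at the left edge of the cloud at −1.90.

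The rest of the proteasome was read from lists of its parts. Of 50 proteasome genes (core, 19S particle, immunoproteasome subunits, chaperones, activators and inhibitors), the 5 members were the listed ones, 3 lower and 2 higher, and 45 were not in the table. That share is 10.0%, near the 11.2% of all tested genes, which would give 5.62 genes if all 50 had been tested. Of 14 core subunits 1 was listed, of 19 subunits of the 19S particle 1, and of 9 assembly chaperones 3. The 3 immunoproteasome subunits, among them PSMB9, and the 5 activators and inhibitors were all absent from the table. So were all 13 genes of enzymes bound to the proteasome, ubiquitin shuttles and the NFE2L1 axis, the transcriptional route that raises proteasome genes when degradation is blocked. For a gene outside the table, an untested gene and one with p at or above 0.05 cannot be told apart.

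**Figure D3:**
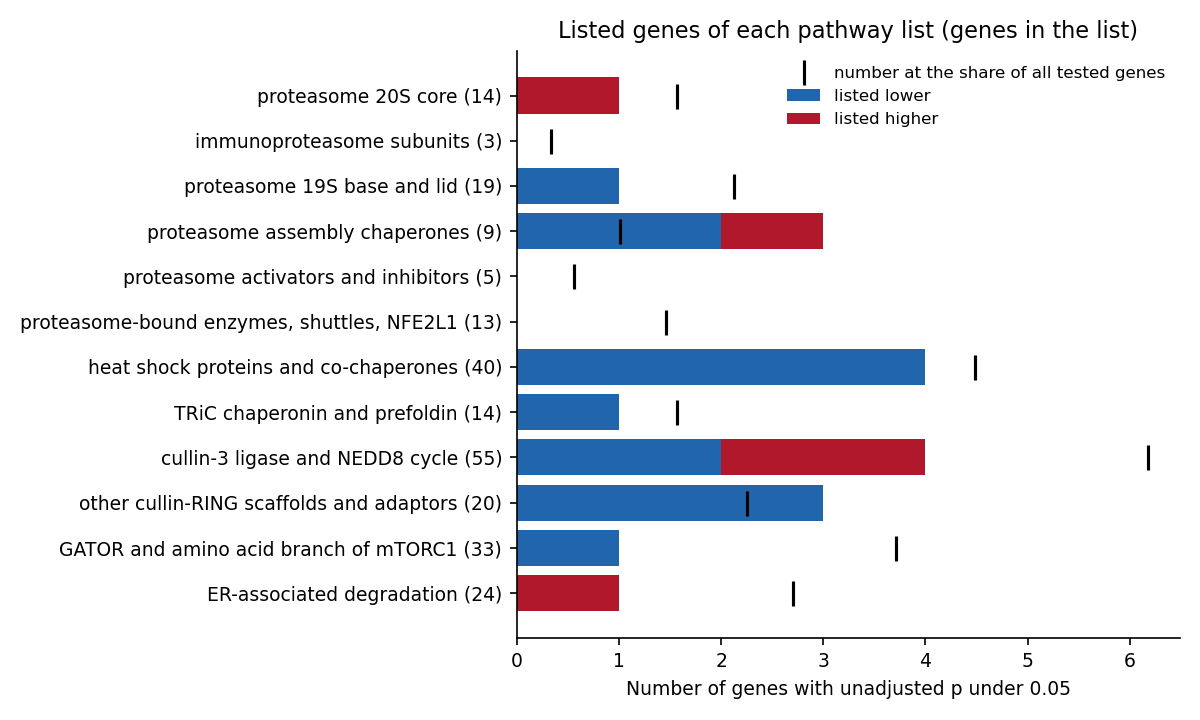
Number of genes listed lower (blue) and higher (red) in shPRMT1 for each pathway list, with the size of the list in brackets; the black mark is the number that the share of all tested genes (11.2%) would give. The marks lie beyond the bars for most lists; the bars pass their marks for the 9 assembly chaperones, whose 3 listed genes are members, and for the 20 other cullin-RING genes.

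Around HSPH1, the list of heat shock proteins and co-chaperones had 4 of 40 genes in the table (10.0%), all 4 on the lower side. At the share of all tested genes, 4.49 would be listed in either direction, and 6.56% of all tested genes were listed lower. HSPH1, among these 4, was chosen as a listed gene. DNAJC13, a DNAJ gene outside this list, was higher, at 0.19 in log2 in the authors' deposited table. DNAJA1, a J-domain protein that delivers substrates to HSP70, stood in the authors' deposited table at −0.44 in log2 (p = 0.00689, adjusted p = 0.379), and its paralogue DNAJA2 at −0.28 (p = 0.00892, adjusted p = 0.390). AHSA1, which speeds up the ATPase of HSP90, stood in the authors' deposited table at −0.21 (p = 0.0368). HSPH1 had the smallest log2 difference of these 4. The stress-inducible HSP70 genes HSPA1A and HSPA1B, the constitutive HSPA8, both cytosolic HSP90 genes and the regulator HSF1 were not in the table. Of 14 genes of the TRiC chaperonin and of prefoldin, which fold actin and tubulin, the prefoldin subunit VBP1 was listed, in the authors' deposited table at −0.17 in log2 (p = 0.0125).

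Around KLHL22, 4 of 55 genes of the cullin-3 ligase, its BTB adaptors and the NEDD8 cycle were listed (7.27%, against 11.2% of all tested genes), 2 lower and 2 higher. The authors' deposited table gave KLHL36, another Kelch adaptor, 0.30 in log2 (p = 0.0225). The COP9 signalosome, which removes NEDD8 from cullins, had subunits of opposite sign. In the authors' deposited table COPS8 was at −0.36 in log2 (p = 0.00193, adjusted p = 0.308) and COPS4 at 0.13 (p = 0.0417, adjusted p = 0.432). CUL3 and RBX1, the scaffold and the RING subunit of the ligase that KLHL22 serves, were not in the table. Of the other cullin-RING genes, 3 of 20 were listed (15%), all lower, where the share of all tested genes would give 2.25 in either direction. On the lower side, 6.56% of all tested genes were listed. In the authors' deposited table the 3 were the RING subunit RNF7 at −0.32, the F-box protein FBXW11 at −0.24 and the SCF adaptor SKP1 at −0.07 in log2.

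DEPDC5, the named substrate of KLHL22, and its GATOR1 partners NPRL2 and NPRL3 were not in the table. Of the 33 genes of the GATOR complexes and the amino acid branch of mTORC1, 1 was listed (3.03%). This was LAMTOR1, the lysosomal membrane anchor of the Ragulator complex, for which the authors' deposited table gave −0.67 in log2 (p = 0.00469, adjusted p = 0.364).

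In degradation of proteins from the endoplasmic reticulum, 1 of 24 genes was listed, EDEM3, which trims mannose from misfolded glycoproteins, for which the authors' deposited table gave 0.17 in log2. Over all these lists, without the 7 members, 12 of 241 genes were listed (4.98%), 9 lower and 3 higher, and with the members 19 of 248 were listed (7.66%), 14 lower and 5 higher. All 7 members are listed genes, so leaving them out lowers the share by construction. Of all tested genes, 11.2% were listed. The number of these 241 that the authors tested is unknown, so the share among tested genes may be higher.

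**Figure D4:**
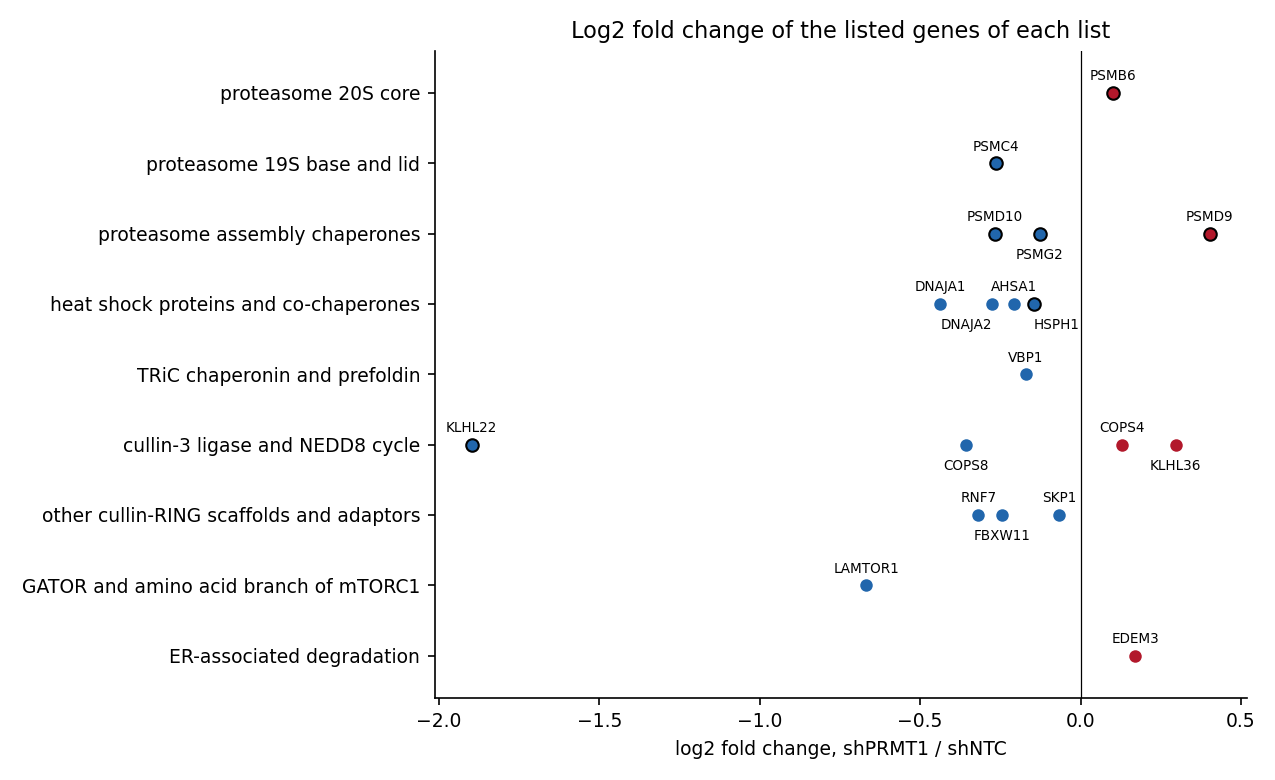
Log2 fold change (horizontal axis) of every listed gene of the pathway lists, by list (vertical axis); blue is lower, red is higher, and a black outline marks the 7 members. KLHL22 at −1.90 lies far from all other points, which run from −0.67 for LAMTOR1 to 0.40 for PSMD9.

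The gene models of the members bear on how their reads could be counted. PSMD9 shares exon sequence on its own strand with WDR66 and with AC069503.2, a protein-coding gene model that reaches from one to the other, in GENCODE 29. KLHL22 likewise shares exons with AC007731.5 and with the keratin pseudogene KRT18P5 on its own strand. PSMG2 overlaps exons of CEP76 and SPIRE1 on the opposite strand. PSMD10 has 3 processed pseudogenes in the annotation (PSMD10P1, PSMD10P2 and PSMD10P3). Whether the counting used strand, or split reads between such copies, no source used here says, so the values of PSMD9, KLHL22, PSMG2 and PSMD10 are uncertain to that extent. None of these overlapping genes or pseudogenes, nor the neighbours ATG4A and MED15, whose starts lie 50 and 30 bases from those of PSMD10 and KLHL22, was in the table. The gene models behind the authors' values may differ from GENCODE 29, so a gene absent from the table may not have been among them. PSMC4, PSMB6 and HSPH1 overlap no other annotated gene.

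Transcript length differed between the directions over the authors' deposited table, and was set beside the members. The median longest protein-coding transcript was 2584 nt for 470 lower genes and 4438 nt for 320 higher genes. PSMD10, PSMC4 and PSMG2, all listed lower, had 1546, 1591 and 1686 nt. PSMB6, listed higher, had the shortest of all at 871 nt, and PSMD9, also higher, had 2784 nt. KLHL22 had 2616 nt and HSPH1 5191 nt, the longest, and both were listed lower. The part of transcript length in these directions was not tested.

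Of 38 markers of other cell types and of epithelium, 4 were listed (10.5%), near the 11.2% of all tested genes. In the authors' deposited table COL1A2, of 10 fibroblast markers, was at −0.51 and CDH5, of 8 endothelial markers, at 0.81 in log2. None of 10 leukocyte markers was listed. Of 10 epithelial markers, the authors' deposited table had CLDN4 at 0.53 and KRT19 at −0.24 in log2. The summed levels of these markers are unknown without values per sample, and their part in the members' values was not tested.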

How the data were processed

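Build hg19, edgeR 3.36.0, deepTools, StringTie 2.2.1, HISAT2 2.2.1 and Trim Galore 0.6.7 are named per the submitters' processing notes, and no source used here gives the role of each. The authors deposited 1 table with a linear ratio of both groups, its log2 value, a p-value and a q-value; the sources used here do not give the test, normalization and filter behind them. The labels' extraction text describes a chromatin immunoprecipitation beside a total RNA kit, and the samples were treated as RNA sequencing.

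No test was run. A count model was foreseen but the table holds no counts, so the authors' values were quoted. The number of tested genes was recovered from p, rank and q under Benjamini-Hochberg adjustment (52 of 53 runs of equal q gave 7640), a step tested on simulated data. The members, the 17 gene lists and the motifs were chosen with earlier results of these data known. List genes were matched by symbol or Ensembl identifier, 247 of 248 pathway genes with success. The genes named were the 7 members, PRMT1 and every listed gene of a list with up to 5; the results of 1 list and 1 gene family are not reported here. Gene models came from GENCODE 29 and sequences from RefSeq (GRCh38.p14), another build than hg19, and no value was placed by coordinate. Alternatives covered thresholds, centring and list content. Calculations used Python 3.11.15, numpy 2.4.6, pandas 2.3.3 and matplotlib 3.10.9.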

Additional observations from a re-analysis of the deposited data

How the results depend on the processing

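The thresholds set the counts of members. Of the 5 lower and 2 higher members in the authors' deposited table, 0 and 0 had an unadjusted p under 0.01, 0 and 0 an adjusted p under 0.05, and 1 and 0 a log2 ratio of 1 or more in size. The 5 listed genes of the proteasome list became 2 with the 20S core and 19S particle only and 0 at an unadjusted p under 0.01. Centring is unknown. With all log2 fold changes raised by 0.1, or centred on the median of all listed genes (in that order), PSMD10 had −0.17 and −0.14, PSMC4 −0.16 and −0.14, PSMG2 −0.028 and −0.0031, HSPH1 −0.046 and −0.021, KLHL22 −1.80 and −1.77, PSMB6 0.20 and 0.23, and PSMD9 0.50 and 0.53. Both settings raise every value, the second because the median of all listed genes is −0.12, so the 2 higher members could not change sign. No lower member changed sign, but PSMG2 and HSPH1 came close to 0. A shift downward was not run, and PSMB6, at 0.10 in the authors' deposited table, is the higher member nearest to 0. No paired analysis was possible because the table holds no values of single samples; for the same reason leaving out a replicate, another normalization and another filter on low counts were not run. Depth is unknown.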

Other observations

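Further families of the ubiquitin and chaperone system were counted by symbol against the protein-coding genes of GENCODE 29, a count chosen after the values were seen. Of 62 F-box genes, which select substrates for SCF ligases, 3 were listed, all lower in the authors' deposited table: FBXO22 at −0.51, FBXO6 at −0.32 and FBXW11 at −0.24 in log2 fold change. Of 85 RNF genes, 5 were listed, 4 lower (RNF121 at −0.35, RNF7 at −0.32, RNF13 at −0.25 and RNF149 at −0.08) and 1 higher (RNF169 at 0.27) in the authors' deposited table. Of 66 TRIM genes, the authors' deposited table had TRIM41 at −0.27 and TRIM37 at −0.20. In the authors' deposited table, of 52 deubiquitinases of the USP family, USP8, which acts on endosomal cargo, was at −0.33, and USP7, which stabilizes MDM2, and USP9X were both at 0.16. Of 42 DNAJ genes, DNAJC13 at 0.19 in the authors' deposited table stood opposite to DNAJA1 and DNAJA2. These shares, from 3.03% for TRIM to 7.14% for DNAJ, are over annotated genes, whether tested or not. Of the tested genes, 11.2% were listed, 6.56% on the lower side and 4.67% on the higher side.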
